A study of Mus musculus with 4 samples.

Results

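The genes described here encode the mucus and granule products of goblet cells, the mucus-secreting cells of the colonic epithelium. They were 10 genes, chosen by name with earlier results of these data known: Muc2, Tff3, Clca1, Fcgbp, Zg16, Agr2, Retnlb, Spink4, Klk1 and Rep15. All probe sets whose only gene symbol was one of these names were used, which gave 17 of the 45101 probe sets on the array and 10 of 18194 named genes. Expression was measured on 4 single-colour arrays, 1 for each group, in male mice. The GFPhigh and GFPlow groups were colonic crypt cells of H2B-GFP mice, in which a tetracycline-responsive element drives a histone H2B fused to green fluorescent protein. Labelling lasted 7 days and was followed by a chase of 2 days, after which the sort kept bright cells (GFPhigh, called non-proliferating) apart from cells whose label had thinned through division (GFPlow, called proliferating). The Dox minus and Dox plus groups were isolated colonic crypts, with no sort named, of mice carrying doxycycline-inducible β-catenin. Dox plus mice received doxycycline for 5 days in their water, at a concentration of 2.0 mg/ml, and Dox minus mice were untreated, so the drug and the induction of β-catenin cannot be told apart. The sources used here do not give the strain, the age, the number of mice behind each array or the driver of the doxycycline-controlled activator.

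Goblet cells fill the upper part of the cell with granules of mucin and release them to form the gel that keeps bacteria away from the epithelium. Muc2 is the mucin that builds this gel in the intestine. Its chains are folded in the endoplasmic reticulum with the help of Agr2, glycosylated in the Golgi, and packed with other secreted proteins that bind, cut or stabilise the gel. Goblet cells arise from crypt progenitors that express the transcription factor Atoh1, and mature under Spdef.

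RefSeq promoter sequences (GRCm38.p6) were at hand for only 4 of the 10 genes, Muc2, Agr2, Klk1 and Fcgbp, and these 4 are shown. All 4 read higher in GFPlow and lower in Dox plus in the comparisons below, with Fcgbp having the smallest differences of the 4. Each window runs 5′ to 3′ on the strand of the gene from 250 bases before to 50 bases after its annotated start. The windows lie at chr7:141690090-141690389 (+ strand) for Muc2, chr12:35992675-35992974 (+ strand) for Agr2, chr7:44225110-44225409 (+ strand) for Klk1 and chr7:28070986-28071285 (+ strand) for Fcgbp. Capitals mark matches, on either strand, to the TATA box core TATAA, the E-box form CAGNTG (N is any base) and the TCF/LEF core CTTTGA.
Muc2: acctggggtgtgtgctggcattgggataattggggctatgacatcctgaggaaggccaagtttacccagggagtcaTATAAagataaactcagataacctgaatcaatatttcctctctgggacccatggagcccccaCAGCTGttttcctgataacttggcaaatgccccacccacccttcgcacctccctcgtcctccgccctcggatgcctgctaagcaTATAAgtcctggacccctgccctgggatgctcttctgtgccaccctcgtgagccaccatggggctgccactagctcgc
Agr2: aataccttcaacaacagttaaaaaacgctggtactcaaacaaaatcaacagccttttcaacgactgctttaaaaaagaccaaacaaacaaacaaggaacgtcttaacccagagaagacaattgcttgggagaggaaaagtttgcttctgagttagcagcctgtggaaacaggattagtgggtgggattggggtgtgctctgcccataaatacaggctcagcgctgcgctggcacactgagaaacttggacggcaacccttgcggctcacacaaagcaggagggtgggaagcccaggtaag
Klk1: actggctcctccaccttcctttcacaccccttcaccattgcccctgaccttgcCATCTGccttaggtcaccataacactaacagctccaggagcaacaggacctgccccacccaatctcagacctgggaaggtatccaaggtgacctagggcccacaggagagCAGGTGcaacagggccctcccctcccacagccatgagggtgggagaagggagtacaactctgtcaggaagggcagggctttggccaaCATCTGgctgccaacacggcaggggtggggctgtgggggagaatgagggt
Fcgbp: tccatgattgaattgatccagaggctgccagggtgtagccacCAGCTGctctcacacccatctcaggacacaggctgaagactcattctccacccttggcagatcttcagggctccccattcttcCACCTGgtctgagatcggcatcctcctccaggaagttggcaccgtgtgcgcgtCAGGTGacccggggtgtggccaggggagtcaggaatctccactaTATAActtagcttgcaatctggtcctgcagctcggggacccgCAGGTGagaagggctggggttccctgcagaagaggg
No marked matches overlap one another, although the palindrome CAGCTG reads the same on both strands and was counted once. Muc2 and Fcgbp each have TATAA at bases 223 to 227 of the window, 28 bases before the start, and Muc2 has a further TATAA at bases 77 to 81. The E-box form occurs 4 times in Fcgbp, 3 times in Klk1 and 1 time in Muc2. The Agr2 window holds no match to any of the 3 motifs, and 0 of the 4 windows hold CTTTGA. Among all 32851 windows of the same length, 24.9% hold TATAA, 51.4% the E-box form and 16.0% CTTTGA. These matches are letters in a window and are not evidence of binding.

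The values are log2 expression values made by the authors with GCRMA, and each gene is given by whichever of its probe sets had the highest average reading. Differences were taken only within a pair of arrays, as GFPlow minus GFPhigh and as Dox plus minus Dox minus. A floor of 5 was set, because low GCRMA values carry little information, and a difference of 1 or more on the log2 scale (2-fold) was counted. All 10 genes lay above the floor on all 4 arrays. With 1 array a group there is no replicate error and no test, and a difference stands for these arrays only. Without Rep15, the other 9 genes read between 12.74 and 15.79, close to the highest value on any array, 16.27. Of the 449 genes with a mean at or above 13, a limit chosen after the values were seen, 4.23% differed 2-fold between the sorted cells and 2.45% between the crypts, against 13.1% and 12.3% of all measured genes. Of the 9 members at that level, 2 (Spink4 and Retnlb) were past 2-fold in favour of GFPlow, beside 1.56% of these genes, and 0 in favour of GFPhigh, beside 2.67%. In the Dox pair 2 (Retnlb and Clca1) were past it in favour of Dox minus, beside 2.45%. Because the arrays hold RNA of many cells, fewer goblet cells and less of a transcript per goblet cell cannot be told apart.

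As a group, the goblet product genes read higher in proliferating than in non-proliferating crypt cells, and lower in crypts after doxycycline than in untreated crypts. Their median difference was 0.68 (1.61-fold) in the GFP pair, beside 0.04 for all 9381 measured genes. Of the 10 genes 9 had a value above 0 there, beside 53.2% of all measured genes. Among the 9, Tff3 and Clca1 differed by only 0.08 and 0.01. The genes past 2-fold in favour of GFPlow were 3, Rep15, Spink4 and Retnlb, beside 8.81% of all measured genes, and 0 passed it in favour of GFPhigh, beside 4.30%. In the Dox pair the median was -0.44 (1.36-fold lower in Dox plus), beside 0.06 for all 9537 measured genes. Here 9 genes had a value below 0, beside 45.0% of all measured genes. A 2-fold lower value was found for 3 genes, Retnlb, Clca1 and Rep15, beside 5.35% of all measured genes, and a 2-fold higher one for 0, beside 6.93%. At a 1.5-fold limit 6 members were higher in GFPlow, beside 18.4% of all measured genes, and 4 lower in Dox plus, beside 11.7%. At a 3-fold limit 1 was higher in GFPlow (Rep15), beside 3.71%, and 1 lower in Dox plus (Retnlb), beside 2.15%. Because the members were chosen with earlier results of these data known, the shares of all genes beside them are description and not a test. The members did not share one pattern, and they are described below by role.

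**Figure D1:**
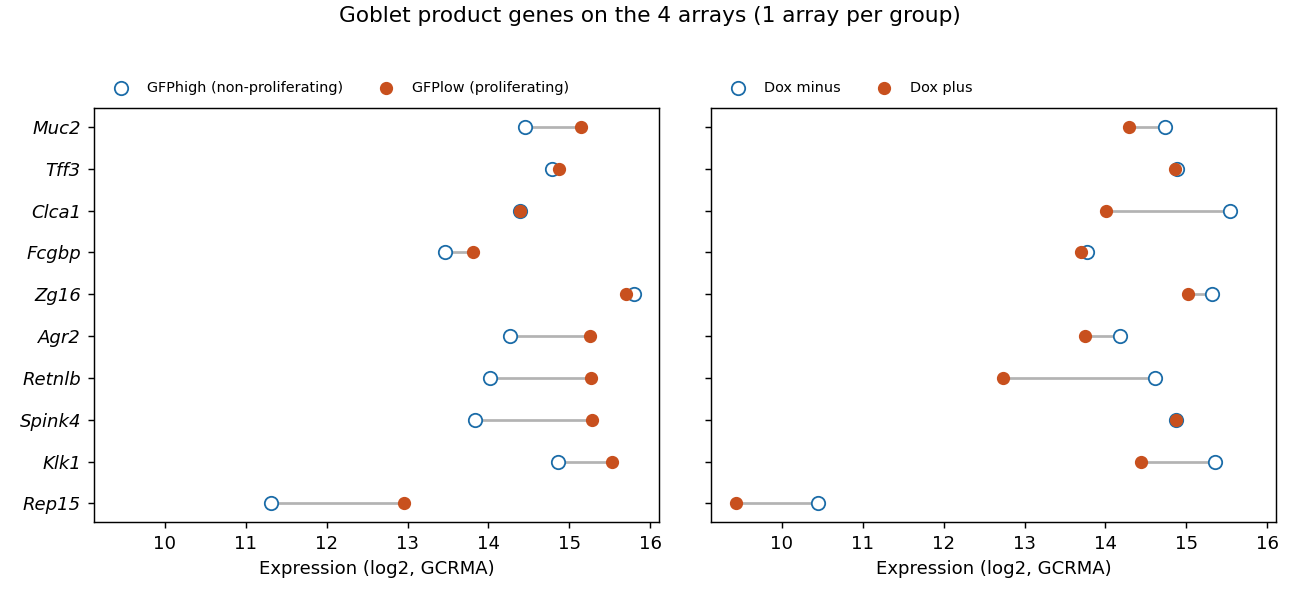
Log2 expression of the 10 goblet product genes on the 2 sorted-cell arrays (left) and the 2 arrays of whole crypts (right); each point is 1 array and grey lines join the arrays of a pair. Rep15, Spink4 and Retnlb have the longest lines in the GFP pair, with GFPlow on the right, and Retnlb and Clca1 in the Dox pair, with Dox plus on the left.

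None of Muc2, Fcgbp, Zg16 and Tff3, components of the mucus layer, differed by 2-fold in either pair. Muc2, the gel-forming mucin, read 14.45 in GFPhigh and 15.15 in GFPlow, a difference of 0.69 (1.62-fold). It read 14.74 in Dox minus and 14.29 in Dox plus, a difference of -0.45. Muc2 was thus higher in the proliferating cells and lower after doxycycline, under 2-fold each time. Fcgbp, a large mucus protein of repeated von Willebrand D domains that associates with Muc2, read 13.46 in GFPhigh, 13.81 in GFPlow, 13.77 in Dox minus and 13.69 in Dox plus. Its differences were 0.35 and -0.08. Zg16, a small lectin-like protein that binds the cell wall of Gram-positive bacteria, read 15.79, 15.70, 15.32 and 15.02 on the same arrays in that order. Zg16 differed by -0.09 between the sorted cells and by -0.29 between the crypts. The sign of the first was not shared by its other probe sets, which gave 0.11 and 0.11. The Zg16 probe set used has a name suffix (_x_at) that marks possible matches to other transcripts. Tff3, a trefoil peptide secreted with the mucin and known for its part in mucosal repair, read 14.79 in GFPhigh, 14.87 in GFPlow, 14.89 in Dox minus and 14.87 in Dox plus. Its differences, 0.08 and -0.02, were among the 3 closest to 0 in both pairs.

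Clca1, a secreted metalloprotease of the gel that cleaves Muc2, separated the pairs. It read 14.39 on both sorted-cell arrays, a difference of 0.01. In the crypts it read 15.54 in Dox minus and 14.00 in Dox plus, a difference of -1.54 (2.91-fold lower). The untreated crypts thus had the high value and the treated crypts the low one. A second Clca1 probe set was also near 0 in the GFP pair (-0.01) and lower in Dox plus, with 7.38 in GFPhigh, 7.37 in GFPlow, 9.43 in Dox minus and 4.48 in Dox plus. Since the last value lay under the floor, its Dox difference was -4.43 or beyond. Among all measured genes 216, Clca1 included, had a Dox difference as low as that of the first probe set.

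Agr2, a disulfide isomerase of the endoplasmic reticulum that Muc2 production needs, read 14.27 in GFPhigh and 15.26 in GFPlow. That difference of 0.99 (1.99-fold) lay just under the 2-fold limit. In the Dox pair it read 14.18 in Dox minus and 13.75 in Dox plus, a difference of -0.43. Its second probe set, which by its name suffix may match other transcripts, gave 0.95 and -1.25 in these pairs, so the size of the Dox difference depended on the probe set while its direction did not.

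Retnlb had opposite differences past 2-fold in the pairs. It encodes RELMβ, a secreted resistin-like protein of goblet cells that damages Gram-negative bacteria and is known to be induced by type 2 cytokines. It read 14.02 in GFPhigh and 15.27 in GFPlow, a difference of 1.25 (2.38-fold higher). It read 14.62 in Dox minus and 12.74 in Dox plus, a difference of -1.88 (3.68-fold lower), the farthest from 0 among the 10 genes in that pair. Counting Retnlb, 150 of 9537 measured genes had a Dox difference as low. Only 1 probe set represents it, so no second reading was possible.

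Spink4 and Klk1 belong to the protease and inhibitor part of the granule. Spink4, a Kazal-type protease inhibitor family member abundant in goblet cells, read 13.83 in GFPhigh and 15.28 in GFPlow, a difference of 1.45 (2.72-fold higher). In the crypts it read 14.87 in Dox minus and 14.88 in Dox plus, a difference of 0.00. Spink4 and Retnlb, both past 2-fold in the same direction in the sorted cells, therefore differed widely in the Dox pair. Klk1, the tissue kallikrein that releases kinins from kininogen, read 14.85 in GFPhigh, 15.53 in GFPlow, 15.35 in Dox minus and 14.44 in Dox plus. Its differences were 0.67 and -0.91 (1.88-fold lower), from a probe set whose name suffix (_x_at) marks possible matches to other transcripts. Another Klk1 probe set, without such a suffix, gave 0.68 and -1.07, the second of these past 2-fold. A further one gave -0.02 and -0.29 and the last lay under the floor on all 4 arrays. Mice have a large family of near-identical Klk1b genes, so part of a Klk1 reading could come from relatives. Of 8 Klk1b genes with a probe set of their own, 6 were under the floor on all 4 arrays. Klk1b8 and Klk1b16 read 5.30 in untreated crypts and lay under the floor elsewhere. Klk1b3, Klk1b4, Klk1b9, Klk1b22 and Klk1b26 had no probe set with their symbol alone and were not read.

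**Figure D2:**
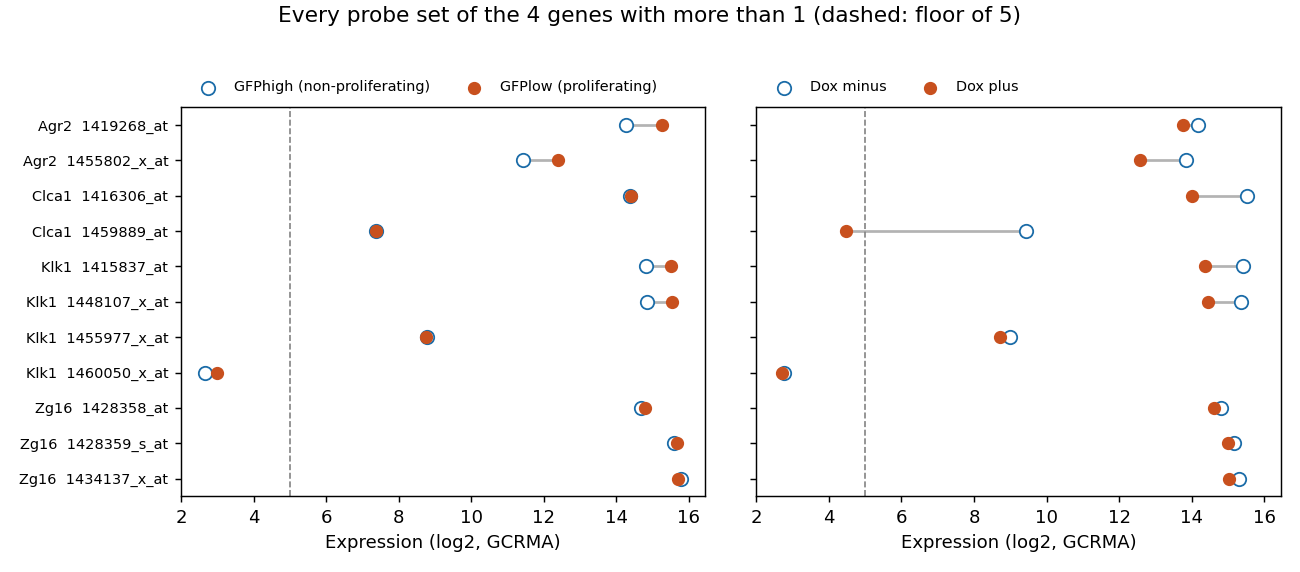
Log2 expression for every probe set of Agr2, Clca1, Klk1 and Zg16 on the sorted-cell arrays (left) and the crypt arrays (right), with the floor of 5 as a dashed line. The second Clca1 probe set goes from 9.43 without doxycycline to 4.48 with it, and 1 Klk1 probe set stays under the floor throughout.

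Rep15, which encodes an effector of the small GTPase Rab15 and acts in vesicle recycling rather than in the mucus itself, passed 2-fold in both pairs. It read 11.31 in GFPhigh and 12.96 in GFPlow, a difference of 1.65 (3.13-fold higher), the largest of the 10 genes in the GFP pair. It read 10.45 in Dox minus and 9.44 in Dox plus, a difference of -1.01 (2.02-fold lower), close to the 2-fold limit. Rab15 itself differed by 1.49 between the sorted cells and by 0.47 between the crypts, so its direction matched that of Rep15 in the sorted cells but not in the crypts.

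The 2 pairs share no array, and their differences can be set side by side for each gene. Of the 10 genes 8 read higher in GFPlow and lower in Dox plus, a combination held by 16.0% of the 9023 genes measured in both pairs. Among the 8, Tff3 and Clca1 had GFP differences of only 0.08 and 0.01. The exceptions were Zg16, lower in both, and Spink4, higher in both by 1.45 and 0.00. Past 2-fold on both sides were Retnlb and Rep15, beside 0.743% of all genes. The genes nearest to Rep15 in these differences, by Euclidean distance over 8578 genes above the floor on all 4 arrays, were Mical1, Cd177 and Syt7, at distances of 0.07, 0.09 and 0.10. Nearest to Retnlb were Trim46, Tmem263 and Ncoa7, at 0.14, 0.14 and 0.17. Likeness over 4 arrays rests on only 2 differences a gene.

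**Figure D3:**
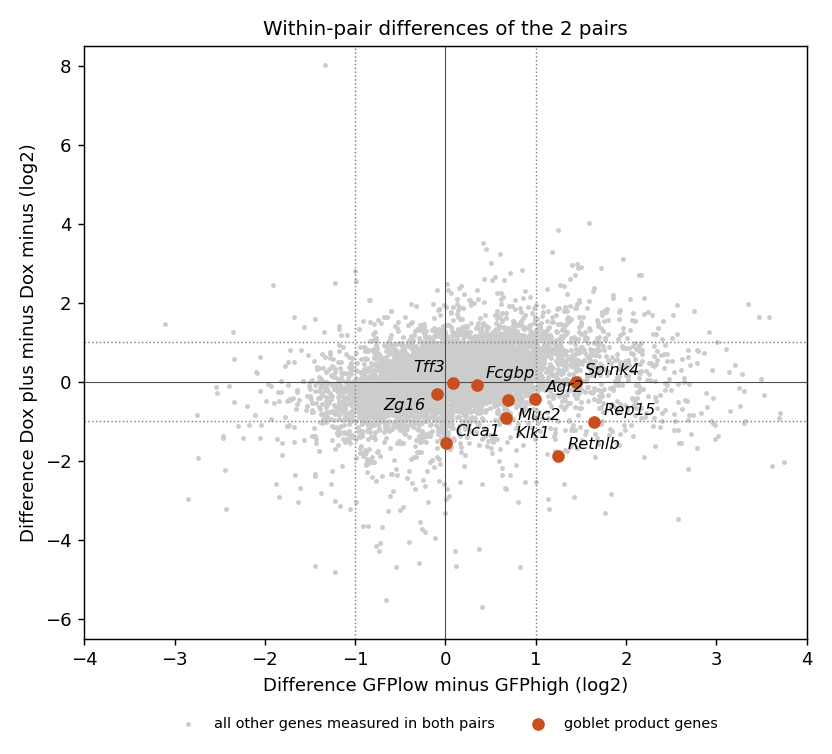
Each point is a gene placed by its log2 difference in the sorted-cell pair (horizontal) and in the Dox pair (vertical), with the goblet product genes in orange and 2-fold limits dotted. Of the 10 genes 8 lie to the right of and below 0, Retnlb and Rep15 beyond both limits.

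The transcription factors of goblet cell formation had a larger median difference than the products in the sorted cells, but most of them read lower on the arrays. Differences of 2-fold in favour of GFPlow were rarer among genes with a mean at or above 13 (1.56%) than among all measured genes (8.81%). The part of signal level in this contrast was not tested. All 10 factors were measured and had a median of 1.39. Of these 7 passed 2-fold in favour of GFPlow and 0 in favour of GFPhigh, beside 8.81% and 4.30% of all measured genes. Creb3l4, an endoplasmic reticulum-bound factor, read 5.89 in GFPhigh and 9.60 in GFPlow, a difference of 3.71, and Spdef, which drives goblet maturation, read 7.23 and 10.17, a difference of 2.94. Atoh1 differed by 2.64 and Gfi1, a repressor downstream of Atoh1, by 2.68. Gfi1 read 5.01 in GFPhigh, just above the floor. Klf4, the factor with the highest reading, went the other way, from 14.49 in GFPhigh to 14.05 in GFPlow (-0.45). In the crypts the median was -0.32. Of the 10, 1 was 2-fold lower after doxycycline, beside 5.35% of all measured genes, and 0 were higher, beside 6.93%. The lower one was Gfi1, which read 7.93 untreated and 5.74 treated, a difference of -2.19. Spdef differed by -0.99 and Atoh1 by 0.00, so the differences of these 3 factors in the crypts ran from -2.19 to 0.00.

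Genes of the secretory endoplasmic reticulum, through which the products pass, all read higher in GFPlow, beside 53.2% of all measured genes. Their differences went down to 0.19 for Sdf2l1 and 0.04 for Txndc11. Their median was 0.77, and 5 of 14 passed 2-fold in that direction, beside 8.81% of all measured genes. Xbp1 (0.49) was counted both in this list and among the transcription factors. Kdelr3, which returns escaped proteins to the endoplasmic reticulum, differed by 3.75, the disulfide isomerases Pdia5 and Pdia6 by 1.83 and 1.68, and the coat protein Sec24d by 1.32. Kdelr3 read 5.27 in GFPhigh, just above the floor. Between the crypts 2 of 14 were past 2-fold lower in Dox plus, beside 5.35% of all measured genes, and 0 higher, beside 6.93%. The lower ones were Kdelr3 (-2.02) and the chaperone Dnajc10 (-1.16), and the list median was -0.10. Ern2, the stress sensor IRE1β of mucus-secreting epithelia, went with the products in the sorted cells (1.02) and against them in the crypts (0.82).

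Enzymes that build the glycans of mucins followed the products in part. Their median in the GFP pair was 0.46. Of 21 genes measured, 5 passed 2-fold in favour of GFPlow and 1 of GFPhigh, beside 8.81% and 4.30% of all measured genes. The 5 were led by Galnt5 (2.58), which starts O-glycans, the sulfotransferase Chst4 (2.08), the sialyltransferase St6galnac2 (2.03) and the branching enzyme Gcnt3 (1.62). Galnt5 read 5.18 in GFPhigh, just above the floor. The sialyltransferase St3gal4 differed by -1.36. After doxycycline 5 of 24 had a 2-fold lower value, beside 5.35% of all measured genes, and 0 a higher one, beside 6.93%. The median was -0.40. St6galnac1, which caps mucin glycans with sialic acid, read 9.22 in Dox minus and 3.11, under the floor, in Dox plus, a difference of -4.22 or beyond. B3gnt6, which makes the core 3 glycan of colonic mucus, read 8.20 and 3.81, a difference of -3.20 or beyond. Both differences were farther from 0 than that of any goblet product gene as represented here. The branching enzyme Gcnt1 differed by -2.71 and St3gal6 by -1.60. On the sorted-cell arrays St6galnac1 and B3gnt6 were under the floor, so they gave no difference there.

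Genes of granule release and related goblet functions went both ways. The GFP pair had a median of 0.34 over 18 genes. Past 2-fold in favour of GFPlow were 5 of them, beside 8.81% of all measured genes, and in favour of GFPhigh 0, beside 4.30%. Among the 5 were the Rab27 effectors Sytl4 (2.10) and Sytl2 (1.43), Rab15 (1.49) and the bicarbonate-permeable channel Best2 (2.08). Sytl4 read 5.47 in GFPhigh, close to the floor. Between the crypts Best2 alone passed 2-fold and was higher in Dox plus (7.56 in Dox minus, 9.31 in Dox plus, a difference of 1.76). Of all measured genes 6.93% were 2-fold higher there and 5.35% lower. The list median was -0.08. Best2, which in mouse colon is found in goblet cells, thus differed in the opposite direction from Retnlb and Clca1.

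**Figure D4:**
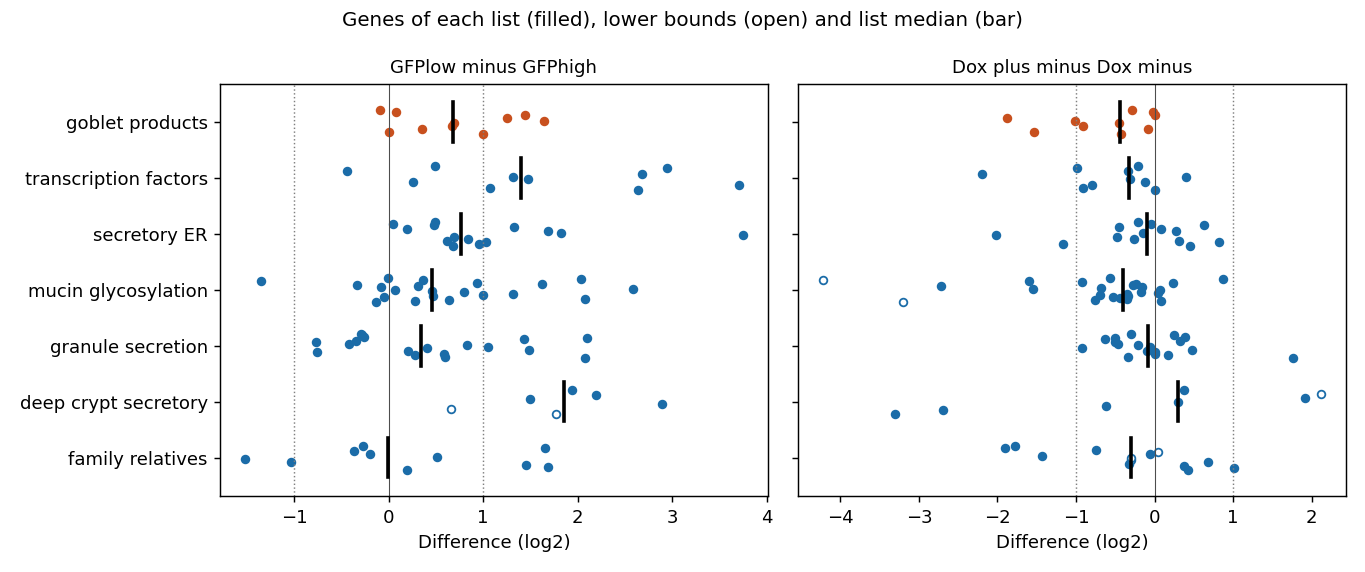
Log2 differences of the measured genes in 7 lists, in the sorted-cell pair (left) and the Dox pair (right); filled points are genes, open points are lower bounds with 1 array under the floor, bars are list medians and dotted lines the 2-fold limits. The median of the transcription factors lies farther right than that of the products in the GFP pair, and 5 glycosylation genes lie beyond the lower limit in the Dox pair.

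Relatives of the members from the same gene families showed no common direction in the sorted cells. Of 36 with a probe set, 10 were measured there and had a median of 0.00. A 2-fold difference favoured GFPlow in 3 and GFPhigh in 2, beside 8.81% and 4.30% of all measured genes. Among the Clca genes, Clca3a2 (1.68) and Clca3b (1.46) were higher in GFPlow and Clca4b (-1.52) and Clca4a (-1.04) lower, with Clca1 between them at 0.01. The membrane mucin Muc4 differed by 1.66. Measured in the crypts were 13, with a median of -0.30. Of these 1 was 2-fold higher after doxycycline and 3 were 2-fold lower, beside 6.93% and 5.35% of all measured genes. The membrane mucins Muc4 (-1.91) and Muc1 (-1.44) and the trypsin inhibitor Spink1 (-1.78) were lower in Dox plus, and Clca3a2 (1.02) was higher. The other trefoil genes Tff1 and Tff2, the gastric and airway mucins Muc5ac and Muc5b, Agr3 and the resistin relatives Retn and Retnla were under the floor on all 4 arrays.

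Retnlb and Clca1 are known as genes induced by interleukin 13 in mice, and genes of cytokine response were therefore listed beside them. All 9 measured in the crypts read lower in Dox plus, beside 45.0% of all measured genes, and 3 of them past 2-fold, beside 5.35%. Their median was -0.47. The 3 were the antibacterial lectins Reg3g (-2.17) and Reg3b (-1.12) and the receptor subunit Il22ra1 (-1.05). The receptors Il4ra and Il13ra1 and the factor Stat6 of the interleukin 4 and 13 pathway differed by -0.13, -0.47 and -0.15. In the GFP pair Reg3b alone passed 2-fold, with at least 2.29 in favour of GFPlow, beside 8.81% of all measured genes. The median of 8 measured genes was -0.41. Il13ra2 and Nos2 were under the floor on all 4 arrays. The part of cytokine response in the Retnlb and Clca1 differences was not tested.

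Markers of other cells in the samples were read on the same arrays. Of all measured genes, 8.81% passed 2-fold in favour of GFPlow, 4.30% of GFPhigh, 6.93% of Dox plus and 5.35% of Dox minus. All 7 epithelial markers, Epcam and Vil1 among them, were above the floor on all 4 arrays, and 0 of them differed by 2-fold in either pair. The 5 markers of dividing cells all passed 2-fold in favour of GFPlow, the direction the sort aimed at, and 2 of them passed it in favour of Dox minus. The mitotic kinases Cdk1 (3.52) and Plk1 (3.31, from 5.20 in GFPhigh, just above the floor), the proliferation marker Mki67 (2.17) and the topoisomerase Top2a (2.13) had the largest GFP differences. Aurkb (-1.24) and Plk1 (-1.04) were the 2 past 2-fold lower in Dox plus. Of 15 colonocyte markers 13 were measured in the sorted cells, 5 of them past 2-fold in favour of GFPhigh, and 14 in the crypts, 1 of them past 2-fold in favour of Dox minus. They were led by the efflux pump Abcb1a (-1.31), the sodium transporter Slc9a2 (-1.15), the sodium channel subunit Scnn1a (-1.15) and the bile acid transporter subunit Slc51b (-1.04) in the GFP pair, and Slc9a2 (-1.11) was the one in the Dox pair. The log2 of their summed linear values was 17.74 in GFPhigh, 17.08 in GFPlow, 17.38 in Dox minus and 17.05 in Dox plus. Enteroendocrine markers were lower in Dox plus for 9 of 10 measured, each past 2-fold, with a summed level of 13.88 in Dox minus and 12.06 in Dox plus. The hormone gene Insl5 (-3.66), the serotonin-synthesis gene Tph1 (-3.14 or beyond), the granin Chga (-3.00) and the tachykinin gene Tac1 (-2.67) had the largest differences, and Sct (1.34), named after its value was seen, was the 1 gene higher. Of 8 measured in the sorted cells 4 were past 2-fold in favour of GFPhigh: the glucagon gene Gcg (-1.87), Tac1 (-1.62), the prohormone-processing Cpe (-1.26) and Chga (-1.22). Chga read 5.20 in GFPlow, just above the floor. The list's summed levels were 13.44 in GFPhigh and 12.34 in GFPlow. Genes that respond to Wnt signalling, the pathway in which β-catenin acts, had 4 of 6 past 2-fold in favour of GFPlow, Myc (1.46), Ascl2 (at least 1.45), Axin2 (1.32) and Lgr5 (at least 1.25), with a median of 1.28. This depended on the floor. With a floor of 6 the count in favour of GFPlow was 2 and the median 0.41. Ascl2 and Lgr5 read only 6.45 and 6.25 in GFPlow. In the Dox pair 5 of 6 were past 2-fold higher in Dox plus and 0 lower, with a median of 2.65, led by Lgr5 (3.84), Ascl2 (2.98), Myc (2.88) and Axin2 (2.43). The part of these cell types and of the Wnt-responsive genes in the goblet product differences was not tested.

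Markers of deep crypt secretory cells, the Reg4-positive cells at the crypt base that share products with goblet cells, were higher in GFPlow as a list but went both ways in the Dox pair. Of 6 measured in the sorted cells 5 passed 2-fold in favour of GFPlow, led by Kit (2.90), Pla2g2a (2.20), Reg4 (1.94) and Ang4 (at least 1.77), and the log2 of the summed level was 13.89 in GFPhigh and 15.93 in GFPlow. Between the crypts Ang4 (-3.30) and Itln1 (-2.69) were lower in Dox plus, Pla2g2a (at least 2.11) and Mmp7 (1.91) were higher, and the summed level went from 15.48 to 15.07. Reg4 (0.37), Lyz1 (0.30) and Kit (-0.62) differed by less than 2-fold there. Pla2g2a read 3.10 in Dox minus and 7.11 in Dox plus, against 12.22 in GFPhigh and 14.42 in GFPlow. Immune markers had 3 of 10 measured in the sorted cells and 6 in the crypts, where 2 passed 2-fold in favour of Dox minus, Jchain (-2.53 or beyond) and Laptm5 (-1.53). Their summed level was 6.85 in GFPhigh, 7.54 in GFPlow, 9.43 in untreated and 8.54 in treated crypts, and Cd3e, Cd3g, Cd68 and Cd79a were under the floor on all 4 arrays. Of 10 stromal markers 9 were under the floor on all 4 arrays, and Vim differed by -1.78 in the Dox pair, with summed levels of 6.13 in GFPhigh, 6.54 in GFPlow, 8.78 in Dox minus and 7.47 in Dox plus. Tuft markers had 1 of 8 measured in the sorted cells and 5 in the crypts, 0 of them past 2-fold. Klk1 is also a gene of the pancreas, and 6 of 8 pancreatic acinar markers, Cpa1 and Prss2 among them, were under the floor on all 4 arrays. The other 2, Clps and Cela1, differed by -4.69 or beyond and by -1.36 between the crypts, and by 0.83 and 0.16 between the sorted cells. Cela1 read 13.87 in GFPhigh, 14.03 in GFPlow, 12.17 in Dox minus and 10.81 in Dox plus. Clps read 5.34, 6.17, 9.69 and 4.95 on these arrays in that order. The part of Clps and Cela1 in the Klk1 value was not tested. Beside the counts of these lists, 8.81% of all measured genes passed 2-fold in favour of GFPlow and 4.30% of GFPhigh. In the Dox pair 6.93% did so in favour of Dox plus and 5.35% of Dox minus.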

How the data were processed

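Total RNA, extracted with Trizol, was made into biotin-labelled cRNA and read on 4 single-colour arrays, per the labels' protocols. The authors deposited 1 log2 expression value for each of 45101 probe sets and array. Per the submitters' processing notes GCRMA was used, which subtracts a background modelled from probe sequence and summarises the probes of a set. Neither its version nor the set of arrays it was run on jointly is given there.

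Probe sets were named from the platform annotation of 2016. Of them 34958 had 1 symbol, 932 several and 9211 none, and only the first were used. All 10 members had a gene ID with the same symbol in the RefSeq gene table (GRCm38.p6). Promoter windows came from RefSeq. A gene was measured in a pair when at least 1 array reached the floor of 5, and values under it were set to it, so such a difference is a lower bound on its size. Differences of 2-fold were counted. No test was run, since each group had 1 array, and that number limits the precision. Pearson correlations over probe sets were 0.985 within each pair and 0.930 to 0.941 across pairs. The calculation was tested on simulated data.

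The alternatives were floors of 4 and 6, no floor, quantile normalization or loess (span 0.4) within a pair, averaging the measured probe sets of each gene, dropping those whose suffix (_x_at, _s_at, _a_at) marks possible matches to several transcripts, and thresholds of 1.5-fold and 3-fold. The members and lists were chosen with earlier results of these data known. All members are named, with up to 4 genes past 2-fold of each other list in each comparison (those with the largest differences), Atoh1, Spdef and the 3 genes nearest to the member with the largest difference in each pair; other genes were named after their values were seen. Python 3.11.15, pandas 2.3.3 and statsmodels 0.14.6 were used.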

Additional observations from a re-analysis of the deposited data

How the results depend on the processing

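The sign of the median difference of the 10 genes was kept under all 7 alternative settings, from 0.57 to 0.69 in the GFP pair and from -0.60 to -0.44 in the Dox pair, with none past 2-fold. The count at least 2-fold higher in GFPlow stayed at 3 under those 7 settings, and was 6 at a 1.5-fold and 1 at a 3-fold threshold, beside 18.4% and 3.71% of all measured genes. The count at least 2-fold lower in Dox plus was 3 or 4 under those settings and at 1.5-fold, and 1 at 3-fold, beside 11.7% and 2.15% of all measured genes at these 2 thresholds. Klk1 was the fourth, at -1.05 with quantile normalization and -1.07 when suffixed probe sets (_x_at, _s_at, _a_at) were dropped. The number of members above 0 in the Dox pair was 1 as reported and 0 with quantile normalization (Spink4 at -0.09) and with loess (Spink4 at -0.05). In the GFP pair the number above 0 was 9 as reported and 7 with quantile normalization, where Tff3 took the value -0.01 and Clca1 -0.02. Zg16 was 0.04 when its probe sets were averaged and 0.11 when suffixed ones were dropped. The signs of Tff3, Clca1 and Zg16 are therefore unsettled. Clca1 in the Dox pair reached -2.99 with the mean of its probe sets. No paired analysis was possible because each group had 1 array. Single arrays, and readings near the top of the scale, limit all of these values.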

Other observations

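Genes other than the goblet products that read as high were also compared. With a mean over the 4 arrays at or above 13, a limit chosen after the values were seen, 7 of 449 genes passed 2-fold in favour of GFPlow and 12 in favour of GFPhigh. The 12 held no goblet product gene, and their differences ran from -1.32 for the kinase gene Sgk1 to -1.04 for Nudt4, with Abcb1a (-1.31) and Ifit1bl1 (-1.16) next to Sgk1. Besides Spink4 and Retnlb, the 7 were the deep crypt marker Reg4 (1.94), the surface glycoprotein Cd24a (1.44), the glutathione peroxidase Gpx2 (1.44), the mucosal pentraxin Mptx1 (1.42) and the ion cotransporter Slc12a2 (1.40). Of the same 449 genes 11 passed 2-fold in favour of Dox minus and 0 in favour of Dox plus. Retnlb and Clca1 were among them, with Mptx1, which read 15.36 in Dox minus and 12.44 in Dox plus (a difference of -2.92), the interferon-related Ifit1bl1 (-3.14), the myelin and epithelial membrane protein gene Pmp22 (-1.96), the gasdermin gene Gsdmc2 (-1.91), the secretory granule gene Sycn (-1.89), Spink1 (-1.78), the phosphate transporter Slc20a1 (-1.46), the amino acid transporter Slc6a14 (-1.34) and Tsc22d1 (-1.06). Mptx1, like Retnlb, was past 2-fold higher in GFPlow and past 2-fold lower in Dox plus.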
